A study of Mus with 9 samples.

Results

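The hypoxia response genes described here are 9 genes of the oxygen-sensing pathway, chosen by symbol out of the 54532 genes of the count table. They are Hif1a, Epas1 and Hif3a, which encode the α subunits of the hypoxia-inducible factors, Egln1 and Egln3, which encode prolyl hydroxylases, and the target genes Epo, Vegfa, Car9 and Ndrg1. All 9 symbols were found once in the table, and 8 of them passed the filter on low counts. Epo did not.

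Kidney RNA from 9 male C57BL/6 mice was sequenced, with 3 mice in each of the groups 18 mo, 21 mo and 21 mo/O304. Every mouse had 1 kidney removed at 18 months of age. The 18 mo mice were killed 1 week after surgery, the 21 mo mice received saline injections every day for 12 weeks, and the 21 mo/O304 mice received O304, an activator of the energy-sensing kinase AMPK, at 10 mg/kg/day over the same time. Age, time since surgery and injections therefore cannot be told apart in the comparison of 21 mo with 18 mo, and the controls of O304 are the saline mice of the same age. Kidneys of the last group are called O304 kidneys below. The labels number the samples of each group from 1 to 3, and each sample was taken as 1 mouse.

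Cells sense oxygen through the HIF α subunits. When oxygen is ample, the EGLN enzymes hydroxylate prolines of HIF α, the VHL ubiquitin ligase binds the hydroxylated protein, and it is degraded. When oxygen is low, HIF α persists, pairs with ARNT and switches on genes for blood vessel growth, red cell production and glycolysis. The control acts mainly on the protein, so RNA levels of Hif1a and Epas1 do not measure HIF activity. In the kidney, HIF-1α is found mainly in tubule cells and HIF-2α, the product of Epas1, in endothelial and interstitial cells, where it drives erythropoietin production.

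Counts on genes summed to between 15636378 and 18396725 per library. Values within a gene are given in CPM, the count scaled to the library's size after TMM normalization, where 1 count was worth 0.0457 to 0.0668 CPM. Libraries of the 21 mo group stood apart from one another. The summed level of 12 proximal tubule markers was 35434 CPM in 21 mo replicate 1, 11044 in replicate 2 and 2526 in replicate 3, against 35324 to 43359 CPM in 18 mo kidneys and 41035 to 46007 CPM in O304 kidneys. No marker of the 9 cell type lists was at 0 in all libraries, and all 12 proximal tubule markers passed the filter. The filter acts over all libraries, so it does not show which part of the kidney each library held. In the same replicates 2 and 3, 12 fibroblast and pericyte markers summed to 725 and 1319 CPM (18 mo, 284 to 356), and 7 urothelial markers to 57.5 and 227 CPM (18 mo, 1.11 to 6.19). Each result below is therefore also given by library, and the part of tissue makeup in it was not tested. Whether the marker levels of 21 mo replicates 2 and 3 reflect the state of those kidneys or the piece of kidney that was taken cannot be told apart here, and this bears on every difference of the 21 mo group.

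**Figure D1:**
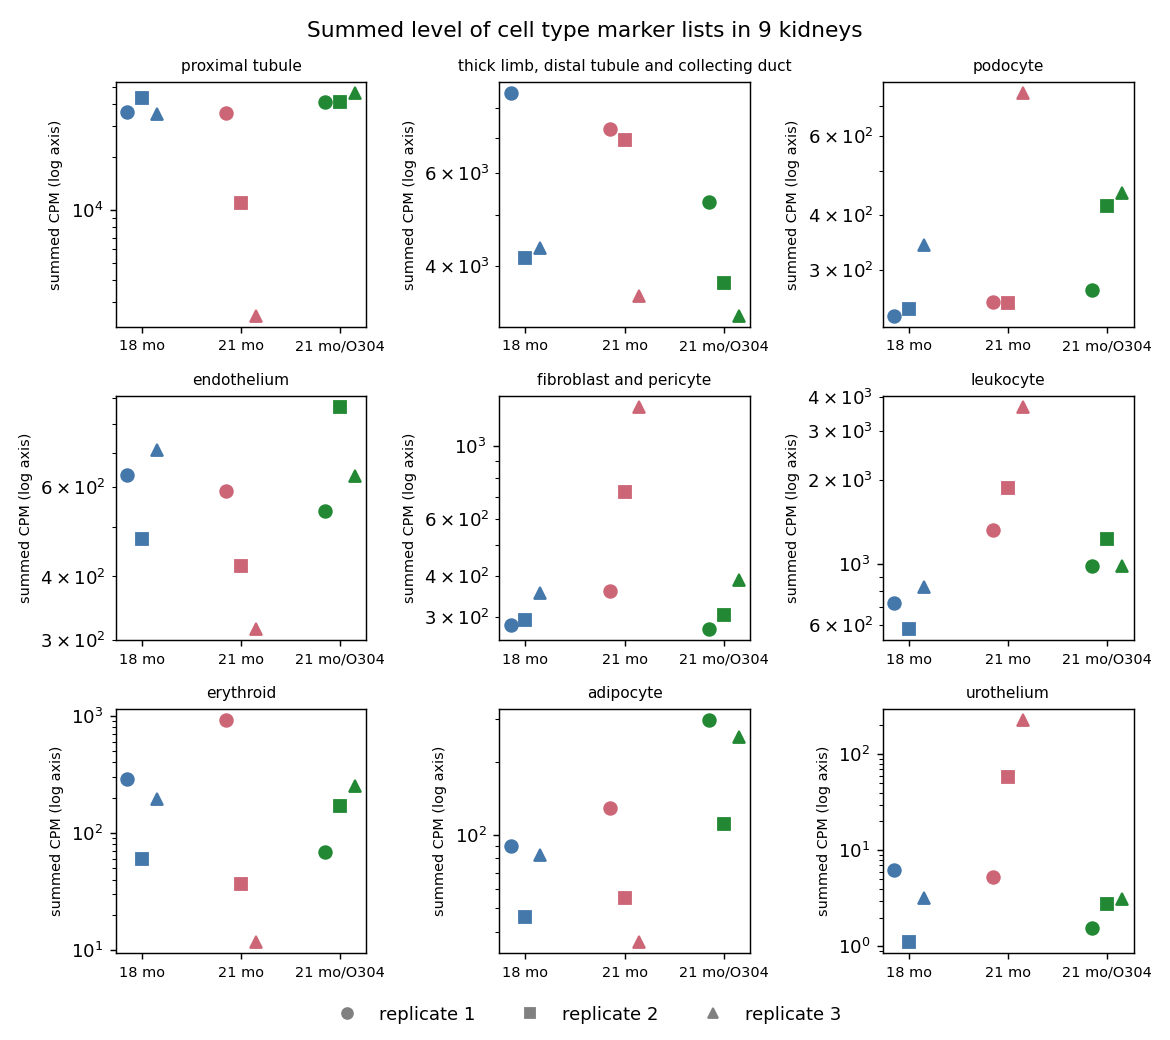
Summed CPM (log axis) of 9 lists of cell type markers in the 9 kidneys, by group, with a symbol for each replicate. The proximal tubule list was lowest in 21 mo replicates 2 and 3, at 11044 and 2526 CPM, where the fibroblast and urothelial lists were highest.

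Each member lies on its own stretch of the genome (GRCm38, coordinates of the deposited table). Hif1a is on chromosome 12 from 73901375 to 73947530, Epas1 on chromosome 17 from 86753907 to 86833410, and Hif3a on chromosome 7 from 17031507 to 17062427. Egln1 is on chromosome 8 from 124908587 to 124949324 and Egln3 on chromosome 12 from 54178981 to 54203860. Vegfa is on chromosome 17 from 46016993 to 46032369, Car9 on chromosome 4 from 43506966 to 43513729 and Ndrg1 on chromosome 15 from 66929318 to 66969640. Epo is on chromosome 5 from 137483020 to 137533242, a span that overlaps 7 other annotated genes, among them Gnb2, Gigyf1 and Pop7. Whether counting used strand is not given in the sources used here, so reads of Epo and of its overlapping genes may not be fully separated. Hif1a, Hif3a, Car9 and Ndrg1 also overlap other genes, of which the most counted was Gm12454, antisense to Car9, with a mean of 25.7 counts per library.

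Per length, the 9 genes spanned over 3 orders of magnitude. On the scale of the authors' FPKM, Ndrg1 was by far the most abundant, at 228 ± 33.4 FPKM (SD, n = 3) in 18 mo kidneys. It was followed by Vegfa at 37.4 ± 3.72, Egln1 at 30.2 ± 2.79 and Epas1 at 25.4 ± 3.46 FPKM, of which neighbors overlapped in range. Hif1a at 9.90 ± 0.513, Egln3 at 6.71 ± 1.10 and Car9 at 3.80 ± 1.68 FPKM each stood below the gene before it with no overlap. Epo at 0.766 ± 0.850 and Hif3a at 0.101 ± 0.0843 FPKM closed the order and overlapped each other. In the 21 mo group all 9 places of the order were the same, but Epas1 at 17.1 ± 2.20 and Hif1a at 16.2 ± 3.04 FPKM now overlapped. In the 21 mo/O304 group Epas1 at 25.0 ± 4.42 FPKM was again above Hif1a at 11.5 ± 1.28 FPKM with no overlap, and Epo was last.

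Of the α subunits, Hif1a was higher and Epas1 lower in 21 mo than in 18 mo mice. Hif1a was at 64.0, 56.3 and 60.0 CPM in the 18 mo mice (replicates 1 to 3, as in all lists below), 77.2, 110 and 109 CPM in 21 mo kidneys and 76.7, 70.7 and 61.3 CPM in O304 kidneys. Every 21 mo library was above every library of both other groups, replicate 1 by the least. Hif1a differed by 0.72 on the log2 scale in 21 mo versus 18 mo (SE 0.16, edgeR adjusted p = 0.0672), from 60.1 ± 3.85 to 98.6 ± 18.6 CPM (SD, n = 3). Under O304, at 69.6 ± 7.78 CPM, it was −0.50 against 21 mo (SE 0.16, adjusted p = 0.178, edgeR) and 0.21 against 18 mo (SE 0.16, adjusted p = 0.711, edgeR). None of the 3 passed the threshold used throughout, an adjusted p of 0.05 after Benjamini-Hochberg adjustment over all genes tested. Leukocytes, which also express Hif1a, stood higher too, with 10 markers summing to 1325, 1871 and 3679 CPM in 21 mo replicates 1 to 3, to 583 to 827 CPM in 18 mo mice and to 981 to 1224 CPM under O304. Their part in the Hif1a values was not tested. In bulk RNA, fewer cells of a type and less RNA per cell cannot be told apart, here and below.

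Epas1 had the opposite order. It was at 129, 127 and 161 CPM in 18 mo kidneys, at 108, 86.7 and 87.2 CPM in 21 mo kidneys, and at 115, 162 and 132 CPM in O304 kidneys. Every 21 mo library was below every other library, while the 18 mo and 21 mo/O304 groups overlapped. On the log2 scale Epas1 differed by −0.57 in 21 mo versus 18 mo (SE 0.17, adjusted p = 0.0974, edgeR) and 0.54 in O304 versus 21 mo (SE 0.17, adjusted p = 0.180, edgeR). Against 18 mo the O304 mice were at −0.03 (SE 0.17, adjusted p = 0.980, edgeR). The 12 endothelial markers, cells where Epas1 is known to be abundant, summed to 474 to 710 CPM in 18 mo kidneys, to 590, 420 and 315 CPM in 21 mo replicates 1 to 3, and to 538 to 865 CPM under O304. All 12 had a lower fitted value in 21 mo than in 18 mo, around a median of −0.41 in log2, and their part in the Epas1 values was not tested.

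Set against each other within a library, the ratio of Epas1 to Hif1a on the FPKM scale was 2.24, 2.50 and 2.97 in 18 mo kidneys. It was 1.55, 0.874 and 0.892 in 21 mo kidneys and 1.66, 2.55 and 2.40 in O304 kidneys. The 21 mo libraries were below all others, so that Hif1a exceeded Epas1 in 2 of the 9 kidneys, 21 mo replicates 2 and 3. Each comparison of the 21 mo group gave p = 0.1 (exact permutation test, two-sided), the smallest that 3 mice against 3 allow. This had to follow from the separate ranges of Hif1a and Epas1 given above, so it is not a further observation. Between O304 and 18 mo kidneys the exact permutation test gave p = 0.5.

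Hif3a, whose product can act as an inhibitor of the other HIF α subunits, was barely expressed. It had 4, 8 and 24 counts in 18 mo kidneys, 27, 25 and 28 counts in 21 mo kidneys and 19, 8 and 9 counts in O304 kidneys. Hif3a was more abundant in each saline mouse than in each mouse given O304, and the range of the 18 mo group overlapped both. Of the 18 mo mice, replicate 3 at 1.36 CPM lay in the 21 mo range and replicate 2 at 0.492 CPM in the O304 range. Its log2 fold change was 1.08 in 21 mo versus 18 mo (SE 0.60, adjusted p = 0.278, edgeR) and −1.05 in O304 versus 21 mo (SE 0.60, adjusted p = 0.326, edgeR).

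The hydroxylase genes differed from each other. Egln1, which encodes PHD2, the main oxygen sensor of the pathway, was at 107, 122 and 105 CPM in 18 mo kidneys, 105, 67.3 and 63.0 CPM in 21 mo kidneys and 111, 105 and 99.0 CPM in O304 kidneys. The low values were those of 21 mo replicates 2 and 3, and replicate 1 lay just under the lowest 18 mo library, at 105.27 against 105.34 CPM. Fitted log2 fold changes of Egln1 were −0.51 in 21 mo versus 18 mo (SE 0.19, adjusted p = 0.143, edgeR) and 0.42 in O304 versus 21 mo (SE 0.19, adjusted p = 0.253, edgeR). With 21 mo replicate 1 as the only library of its group these values were −0.09 and −0.0041.

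Egln3, which encodes PHD3 and is itself a HIF target, showed no such order. It was at 22.1, 16.7 and 16.4 CPM in 18 mo kidneys, 30.7, 17.2 and 19.2 CPM in 21 mo kidneys and 28.6, 20.2 and 16.7 CPM in O304 kidneys. The 3 groups overlapped, and the highest mouse of each group was its replicate 1. For Egln3 the log2 fold change was 0.28 in 21 mo versus 18 mo (SE 0.27, adjusted p = 0.526, edgeR) and −0.03 in O304 versus 21 mo (SE 0.27, adjusted p = 0.948, edgeR). The ratio of Egln1 to Egln3 in FPKM was 3.59, 5.42 and 4.74 in 18 mo kidneys and 2.54, 2.90 and 2.43 in 21 mo kidneys, without overlap (p = 0.1, two-sided exact permutation test). It was 2.86, 3.85 and 4.40 under O304, where replicate 1 lay within the range of the 21 mo group.

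**Figure D2:**
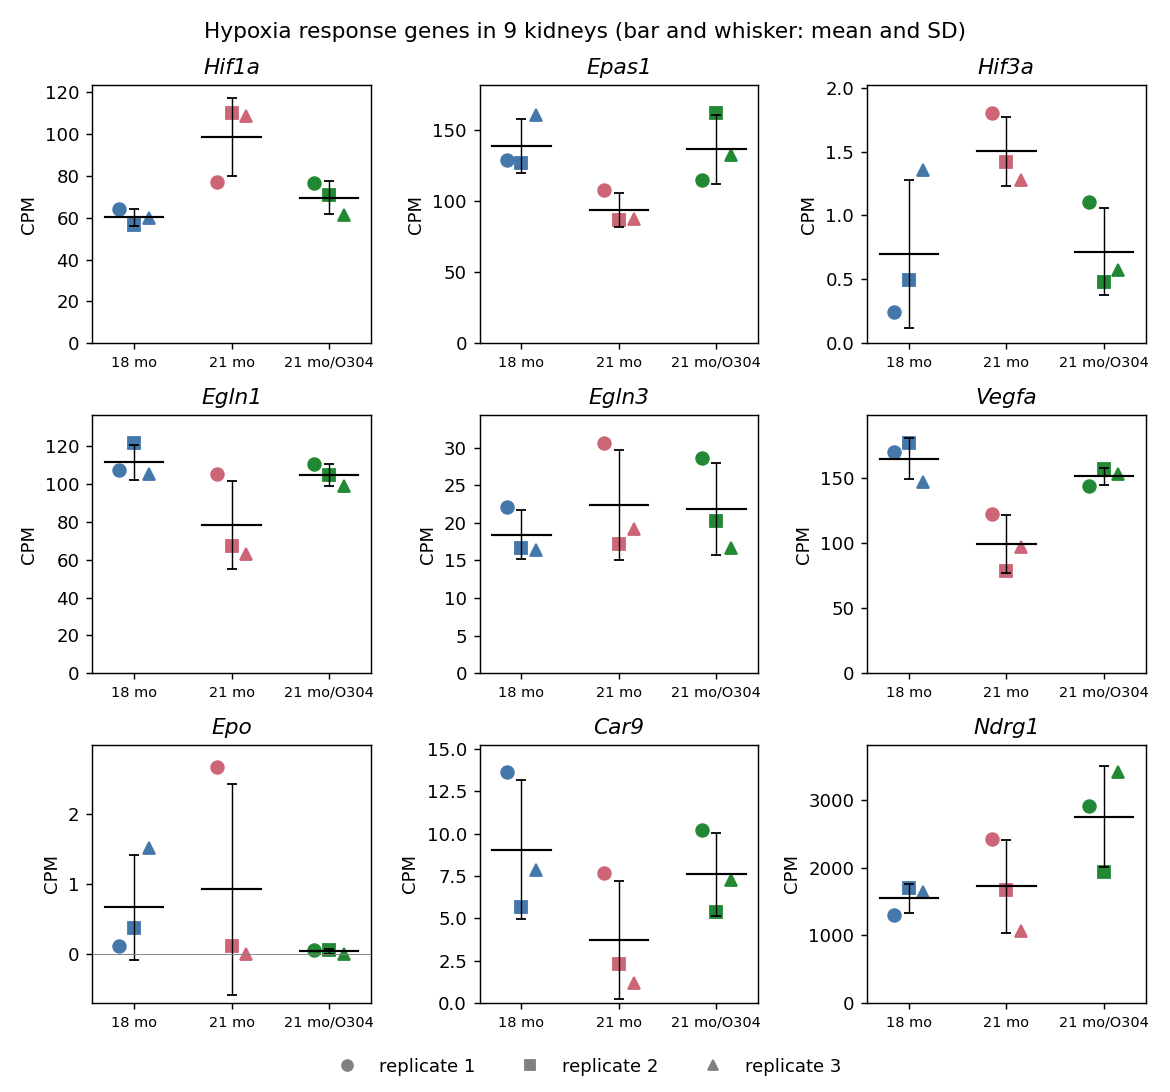
CPM of the 9 hypoxia response genes in each kidney, by group, with a symbol for each replicate. The horizontal bar is the mean and the whisker the SD of 3 mice. The 21 mo libraries lie above all others for Hif1a and below all others for Epas1 and Vegfa, and Epo is close to 0 in all 21 mo/O304 libraries.

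Among the target genes, Vegfa had the clearest order. It encodes the growth factor that maintains the kidney's capillaries, and is made by podocytes and tubule cells. Its level was 170, 177 and 147 CPM in 18 mo kidneys, 123, 78.4 and 96.8 CPM in 21 mo kidneys and 144, 157 and 153 CPM in O304 kidneys. Every 21 mo library was below every library of the other groups. Vegfa differed by −0.73 on the log2 scale in 21 mo versus 18 mo (SE 0.17, adjusted p = 0.0707, edgeR), from 165 ± 15.7 to 99.3 ± 22.3 CPM (SD, n = 3). It was 0.61 in O304 versus 21 mo (SE 0.17, adjusted p = 0.175, edgeR), to 151 ± 6.54 CPM, and −0.12 in O304 versus 18 mo (SE 0.17, adjusted p = 0.868, edgeR). Podocyte markers summed to 237 to 341 CPM in 18 mo kidneys and 255, 253 and 748 CPM in 21 mo replicates 1 to 3, and all 8 had a higher fitted value in 21 mo. Proximal tubule markers had the sums given above, with 11 of 12 lower in 21 mo than in 18 mo. Markers of thick limb, distal tubule and collecting duct summed to 4150 to 8521 CPM in 18 mo kidneys. In 21 mo replicates 1 to 3 they summed to 7290, 6953 and 3509 CPM, with overlap. The part of any of these cell types in the Vegfa values was not tested.

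Epo, which encodes the hormone that drives red cell production and is made by interstitial cells of the kidney cortex, was close to the limit of detection. The counts were 2, 6 and 27 in 18 mo kidneys, 40, 2 and 0 in 21 mo kidneys and 1, 1 and 0 in O304 kidneys. Most counts thus came from 1 mouse of each group without O304. They were 18 mo replicate 3 and 21 mo replicate 1, which supplied 40 of its group's 42 counts. Each O304 kidney was below each 18 mo kidney, with p = 0.1 by a two-sided exact permutation test. O304 and 21 mo kidneys overlapped, with p = 0.5 by the same exact test. In 21 mo/O304 the 2 counts gave a ratio of 0.0576 to the 35 counts of 18 mo (95% exact interval 0.00671 to 0.224) and of 0.0522 to the 42 counts of 21 mo (95% exact interval 0.00612 to 0.201). These intervals cover counting error only, not the spread between mice. When every gene with at least 1 count was tested, Epo had an adjusted p of 0.791 in O304 versus 18 mo and 0.243 in O304 versus 21 mo (edgeR). Fibroblast and pericyte markers summed to 276 to 390 CPM under O304 and to 284 to 356 CPM in 18 mo kidneys. Erythroid markers were highest in 21 mo replicate 1, at 916 CPM, where Epo was highest too, and lay between 11.7 and 287 CPM in the other libraries. In 18 mo replicate 1 they stood at 287 CPM beside 2 counts of Epo. Slc4a1 is on both the erythroid list and the list of thick limb, distal tubule and collecting duct markers. The part of fibroblasts, pericytes and erythroid cells in the Epo values was not tested.

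Car9 encodes a carbonic anhydrase of the cell surface that HIF-1 induces in many tissues. Its level was 13.6, 5.66 and 7.86 CPM in 18 mo kidneys, 7.69, 2.33 and 1.19 CPM in 21 mo kidneys and 10.2, 5.36 and 7.25 CPM in O304 kidneys. Replicates 2 and 3 of the 21 mo group were lowest, and its replicate 1 lay within the range of the others. In log2 terms Car9 differed by −1.29 in 21 mo versus 18 mo (SE 0.63, adjusted p = 0.227, edgeR) and 1.04 in O304 versus 21 mo (SE 0.63, adjusted p = 0.347, edgeR). With 21 mo replicate 1 alone for its group they were −0.24 and −0.012.

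Ndrg1, a stress-responsive gene that hypoxia induces in many cell types, differed in pattern from the other members. It was at 1305, 1693 and 1640 CPM in 18 mo kidneys, 2428, 1667 and 1066 CPM in 21 mo kidneys and 2901, 1938 and 3402 CPM in O304 kidneys. Each O304 kidney was above each 18 mo kidney, while 21 mo kidneys overlapped both. Of the 30 other HIF targets described below, 9 also had every O304 kidney above every 18 mo kidney, beside 13.2% of all genes. Ndrg1 had log2 fold changes of 0.83 in O304 versus 18 mo (SE 0.36, adjusted p = 0.507, edgeR), 0.67 in O304 versus 21 mo (SE 0.36, adjusted p = 0.298, edgeR) and 0.16 in 21 mo versus 18 mo (SE 0.36, adjusted p = 0.807, edgeR). The last value turned to −0.16 without 21 mo replicate 1.

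By edgeR's quasi-likelihood test 0 of the 8 tested members passed an adjusted p of 0.05 in any comparison. Among all 15902 genes tested, 0.0189% passed in 21 mo versus 18 mo, and 0% passed in each comparison of O304. The 3 genes called were Aldh1a1, Tgif1 and Ugt1a2, named here after their values were seen. Other tools differed. DESeq2 called 3 members in 21 mo versus 18 mo, Hif1a at 0.71 (adjusted p = 0.00437), Epas1 at −0.57 (adjusted p = 0.0395) and Vegfa at −0.73 (adjusted p = 0.00543), and 1 in O304 versus 21 mo, Vegfa at 0.61 (adjusted p = 0.0409). Limma's voom with library weights called 5 and 6, limma's trend test on FPKM called 0 in each, and these 3 tools called 0 members in O304 versus 18 mo. Over all genes, DESeq2 called 2023 in 21 mo versus 18 mo, of which 1137 were higher and 886 lower. It called 896 in O304 versus 21 mo, of which 267 were higher and 629 lower. DESeq2 was run on every gene with at least 1 count, a larger set than the 15902 genes of edgeR. In the same comparisons voom called 8409 and 6528 of 15902 genes tested, and the trend test 3 and 0.

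Without adjustment, 4 members had an edgeR p under 0.05 in 21 mo versus 18 mo. Hif1a was higher, as were 14% of all genes, and Epas1, Egln1 and Vegfa were lower, as were 12%, together 26.1%. The same 4 did not overlap in range, beside 13.5% of all genes higher and 15.3% lower, together 28.7%. For O304 versus 21 mo, 3 members had a p under 0.05, Epas1 and Vegfa higher, beside 8.27% of all genes, and Hif1a lower, beside 12.4%, together 20.7%. There 4 tested members did not overlap in range, these 3 and Hif3a, beside 10.9% of all genes higher and 10.5% lower, together 21.3%. For O304 versus 18 mo, Ndrg1 had a p under 0.05, beside 4.33% of all genes higher and 5.33% lower, together 9.66%. It was also the tested member that did not overlap, beside 13.2% higher and 13.3% lower, together 26.5%. Hif1a lay above both other groups in every 21 mo library, as did 4.69% of all genes, and Epas1 and Vegfa lay below both, as did 5.75%. Both comparisons with the 21 mo group share its 3 libraries, so a value opposite in sign between them is not a separate observation.

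**Figure D3:**
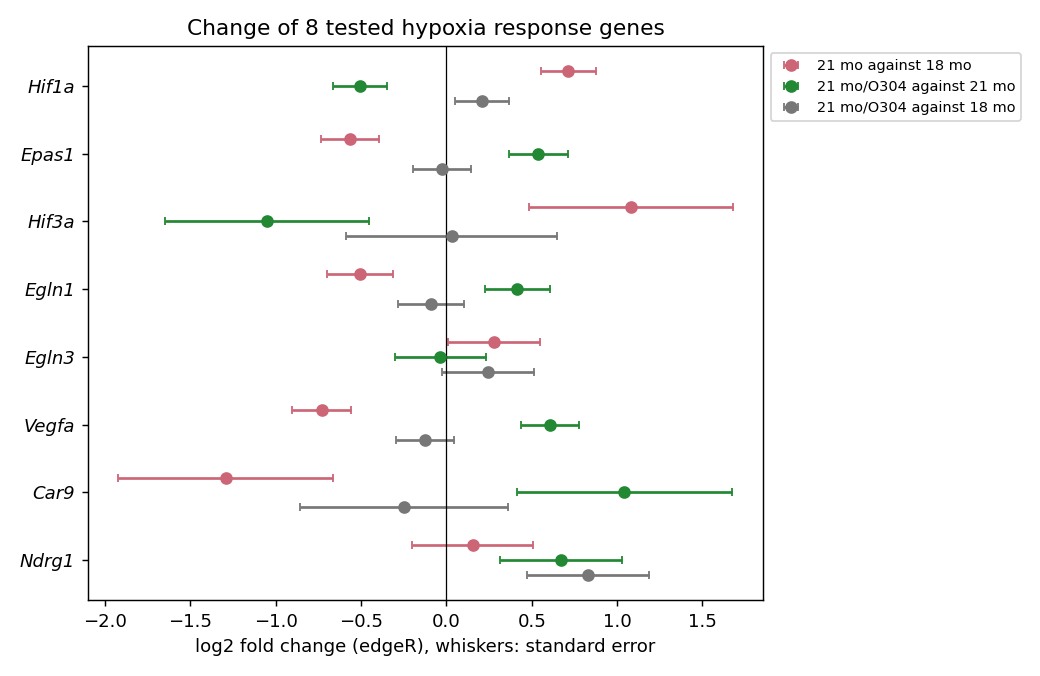
Log2 fold change of the 8 tested members in the 3 comparisons (edgeR), with the standard error as whisker. Hif1a, Epas1, Egln1 and Vegfa have the shortest whiskers and lie on opposite sides of 0 in the comparisons with the 21 mo group, and 0 of the 24 values passed an adjusted p of 0.05.

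The calls depended on the 21 mo libraries. Without 21 mo replicate 1, whose proximal tubule markers were in the 18 mo range, 5 members passed the threshold in 21 mo versus 18 mo. Hif1a was then at 0.88 (adjusted p = 0.00474), Epas1 at −0.66 (adjusted p = 0.0287), Egln1 at −0.76 (adjusted p = 0.00607), Vegfa at −0.89 (adjusted p = 0.00629) and Car9 at −2.35 (adjusted p = 0.0137, all edgeR). The same 5 passed in O304 versus 21 mo, Hif1a at −0.66 (adjusted p = 0.0120), Epas1 at 0.64 (adjusted p = 0.0340), Egln1 at 0.68 (adjusted p = 0.0106), Vegfa at 0.78 (adjusted p = 0.0112) and Car9 at 2.11 (adjusted p = 0.0216, all edgeR). In those fits 4186 and 3808 genes were called in all, 25.4% and 23.1% of those tested. With replicates 2 and 3 left out instead, so that replicate 1 stood alone for its group and its spread was taken from the other groups, 0 of the 9 members, Epo now among them, passed in either comparison (edgeR), where 3 and 0 of 16806 genes did. An unadjusted p under 0.05 was then held by Hif1a, Egln3, Vegfa and Ndrg1 in 21 mo versus 18 mo, beside 14.7% of all genes. In O304 versus 21 mo it was held by the low-count Epo alone among the members, beside 6.94% of all genes. Hif1a, Epas1 and Vegfa then had log2 fold changes of 0.35, −0.38 and −0.43 against 18 mo, and the O304 mice were at −0.15, 0.34 and 0.30 against that mouse.

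All 14 listed genes of the oxygen-sensing machinery passed the filter, with a median log2 fold change of 0.06 in 21 mo versus 18 mo and −0.02 in O304 versus 21 mo, where the medians over all genes were 0.03 and −0.02. In each of these comparisons 0 passed an adjusted p of 0.05 and 1 had an unadjusted p under 0.05 (edgeR), and DESeq2 called 0. Over all genes, 26.1% and 20.7% had an unadjusted p under 0.05 (edgeR). Arnt, the partner of the α subunits, named here outside the rule after its values were seen, stayed between 32.9 and 35.9 CPM in all 9 libraries. Egln2, which encodes the third hydroxylase PHD1, was at 99.0, 95.1 and 90.1 CPM in 18 mo kidneys, 74.2, 59.5 and 80.1 CPM in 21 mo kidneys and 74.0, 66.7 and 77.3 CPM under O304. Saline and O304 kidneys lay below every 18 mo library, with log2 fold changes of −0.41 (SE 0.13, adjusted p = 0.106) and −0.38 (SE 0.13, adjusted p = 0.433, edgeR), and they overlapped each other. Hif1an, which encodes the asparagine hydroxylase FIH, was below the 18 mo range in all 3 mice of the 21 mo group, at −0.21 (SE 0.11, adjusted p = 0.258, edgeR). The O304 kidneys, at 50.0, 51.1 and 48.6 CPM, were also below the 18 mo range of 51.8 to 56.4 CPM. Their log2 fold change against 18 mo was −0.10 (SE 0.11, adjusted p = 0.826, edgeR). Vhl, Siah1a and Siah2, the genes of ubiquitin ligases, had adjusted p-values of 0.215 or more in every comparison. Arnt2 was lower in all 3 mice given O304, at 54.8, 53.9 and 46.6 CPM, than in all 6 others, at 55.4 to 72.6 CPM. Its log2 fold change was −0.35 against 21 mo (SE 0.13, adjusted p = 0.198, edgeR).

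Of 21 glycolytic HIF targets, 11 had higher and 10 lower fitted values in 21 mo than in 18 mo, around a median of 0.03 in log2, and 0 passed an adjusted p of 0.05 (edgeR). DESeq2 called 1, and 2023 over all genes. Beside 14% of all genes higher and 12% lower, 3 of the list had an unadjusted edgeR p under 0.05, all higher. These were Hk2, which encodes the inducible hexokinase, at 3.15 (SE 0.79, adjusted p = 0.0775), the lactate exporter gene Slc16a3 at 1.10 (SE 0.40, adjusted p = 0.131) and Pfkp, a phosphofructokinase gene, at 0.84 (SE 0.36, adjusted p = 0.185, edgeR). Hk2 held 1.74, 3.75 and 16.7 CPM in 21 mo replicates 1 to 3 against 0.677 to 0.961 CPM in 18 mo kidneys, so its mean rested on replicate 3. Ldha and Pgk1, which encode core enzymes of the pathway, were not higher. Ldha was at 761, 584 and 549 CPM in 21 mo kidneys against 760 to 889 CPM in 18 mo kidneys, and Pgk1 at 545, 379 and 282 CPM against 477 to 602 CPM. Both are named here outside the rule, after their values were seen. In O304 versus 21 mo, 14 of the 21 were lower with a median of −0.11. An unadjusted p under 0.05 was held by 6 lower and 1 higher, beside 12.4% of all genes lower and 8.27% higher. By edgeR 0 passed an adjusted p of 0.05. DESeq2 called 2, both lower, and 896 over all genes, of which 267 were higher and 629 lower. Slc16a3 was at −1.47 (SE 0.40, adjusted p = 0.175), Pfkp at −1.23 (SE 0.37, adjusted p = 0.176) and Slc2a1, the gene of the glucose transporter GLUT1, at −1.16 (SE 0.42, adjusted p = 0.196, edgeR). The 1 higher was Gapdh, whose counts are uncertain because many near-identical copies exist in the genome. It ranged from 2.48 to 146 CPM across the libraries, with the high values in 18 mo replicate 3 and 21 mo/O304 replicate 1.

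Of 30 other HIF targets, 23 had higher and 7 lower fitted values in 21 mo than in 18 mo. Their median log2 fold change was 0.30, beside 0.03 over all genes, and 0 passed an adjusted p of 0.05 (edgeR). DESeq2 called 6, all higher, and 2023 over all genes, of which 1137 were higher and 886 lower. Beside 14% of all genes higher and 12% lower, 10 that were higher and 2 that were lower had an unadjusted edgeR p under 0.05. The smallest p-values among them were those of Trf, the gene of the iron carrier transferrin, at 3.11 (SE 0.73, adjusted p = 0.0702), and Lox, the gene of a collagen cross-linking oxidase, at 4.21 (SE 1.07, adjusted p = 0.0775, edgeR). Next were Edn1, which encodes the vasoconstrictor endothelin-1, at 2.78 (SE 0.76, adjusted p = 0.0846) and Stc2, which encodes the secreted glycoprotein stanniocalcin 2, at 1.57 (SE 0.50, adjusted p = 0.102, edgeR). Lox held 4.95, 12.8 and 106 CPM in 21 mo replicates 1 to 3 against 1.85 to 2.54 CPM in 18 mo kidneys. Edn1 held 1.60, 13.8 and 20.7 CPM against 0.923 to 2.29 CPM. These genes were highest in replicate 3, where the fibroblast and pericyte, leukocyte and urothelial markers were highest, at 1319, 3679 and 227 CPM, and the part of those cells was not tested. With replicates 2 and 3 left out the list's median was 0.06, with 18 higher and 12 lower. The 2 that were lower in all 21 mo mice were Car12 at −0.71 (SE 0.29, adjusted p = 0.164), a kidney carbonic anhydrase gene, and Higd1a at −0.52 (SE 0.17, adjusted p = 0.112, edgeR), a mitochondrial gene that is named after its values were seen.

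In O304 versus 21 mo, 20 of these 30 targets were lower and 10 higher, with a median of −0.20 beside −0.02 over all genes, and 0 passed an adjusted p of 0.05 (edgeR). DESeq2 called 5, all lower, and 896 over all genes, of which 267 were higher and 629 lower. Unadjusted, edgeR gave a p under 0.05 for 8 that were lower and for Mxi1, higher at 0.47 (SE 0.15, adjusted p = 0.182, edgeR), which is also named after its values were seen. The shares over all genes were 12.4% lower and 8.27% higher. Plod2, which encodes a lysyl hydroxylase of collagen, was at 54.8, 49.6 and 49.2 CPM in 21 mo kidneys and at 35.6, 30.9 and 26.5 CPM under O304, different by −0.73 in log2 (SE 0.17, adjusted p = 0.175, edgeR). Its 3 libraries of the 21 mo group lay above all 6 others and close together, unlike those of Lox and Edn1. Stc2 was at −2.08 (SE 0.51, adjusted p = 0.175) and Loxl2, a relative of Lox, at −1.83 (SE 0.59, adjusted p = 0.181, edgeR). With replicate 1 alone for the 21 mo group the list's median was 0.03, with 17 higher and 13 lower. In O304 versus 18 mo the smallest p-value was that of Bhlhe40, a transcriptional repressor gene, at 0.47 (SE 0.19, adjusted p = 0.479, edgeR). Bhlhe40 was at 0.50 in 21 mo versus 18 mo (SE 0.19, adjusted p = 0.149, edgeR). In O304 versus 21 mo it was at −0.02 (SE 0.19, adjusted p = 0.949, edgeR). Angptl4, which encodes an inhibitor of lipoprotein lipase and is a target of PPAR as well as of HIF, was at 155, 116 and 128 CPM under O304 against 45.9, 87.3 and 71.0 CPM in 18 mo kidneys, higher by 0.97 in log2 (SE 0.46, adjusted p = 0.539, edgeR). In 21 mo kidneys it was at 132, 125 and 32.5 CPM, which overlapped both groups. Against 21 mo the O304 mice were at 0.47 (SE 0.45, adjusted p = 0.550, edgeR). In the O304 mice 8 adipocyte markers summed to 296, 111 and 252 CPM, against 46.1 to 90.4 CPM in 18 mo kidneys and 129, 55.2 and 36.2 CPM in 21 mo kidneys.

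**Figure D4:**
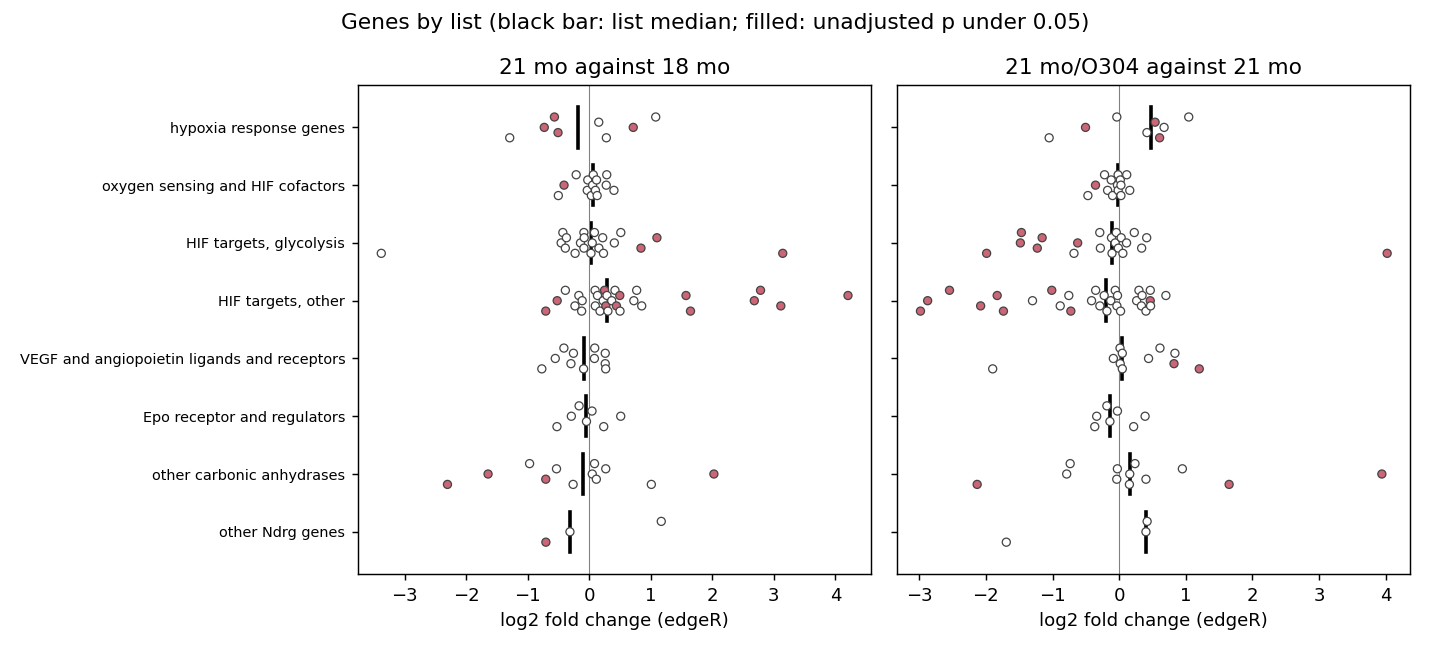
Log2 fold changes (edgeR) of the tested genes of each list in 21 mo versus 18 mo (left) and O304 versus 21 mo (right). A black bar marks the median of a list and filled points have an unadjusted p under 0.05. The other HIF targets have a median of 0.30 on the left and −0.20 on the right, and the oxygen-sensing genes cluster around 0.

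Of 12 other VEGF and angiopoietin ligands and receptors, 11 were tested. In 21 mo versus 18 mo 5 had higher and 6 lower fitted values, around a median of −0.09 in log2, and 0 had an adjusted or an unadjusted p under 0.05 (edgeR), and DESeq2 called 0. Over all genes, 26.1% had an unadjusted p under 0.05 in this comparison (edgeR). Kdr, which encodes the main VEGF receptor of endothelium, was at 51.5, 50.4 and 82.2 CPM in 18 mo kidneys, 55.6, 24.4 and 28.0 CPM in 21 mo kidneys and 53.2, 122 and 73.1 CPM in O304 kidneys. Its log2 fold change was −0.77 in 21 mo versus 18 mo (SE 0.39, adjusted p = 0.242, edgeR), and it was 2.30-fold higher in O304 versus 21 mo (adjusted p = 0.182, edgeR). The other receptor genes Flt4 and Flt1 had log2 fold changes of 0.82 (SE 0.36, adjusted p = 0.236) and 0.84 (SE 0.39, adjusted p = 0.256, edgeR) under O304 against 21 mo. In each of these receptor genes 21 mo replicate 1 was within the 18 mo range, unlike Vegfa. The ligand gene Angpt2 went the other way in O304 versus 21 mo, at −1.90 in log2 (SE 0.84, adjusted p = 0.244, edgeR). Each O304 kidney was below each saline kidney. Of the 11 genes, 9 had higher and 2 lower fitted values in this comparison. An unadjusted p under 0.05 was held by 2, both higher (edgeR), beside 8.27% of all genes higher and 12.4% lower. Kdr and Tek are also on the list of endothelial markers. Vegfb, a ligand that hypoxia is not known to induce strongly, was at −0.26 (SE 0.18, adjusted p = 0.374, edgeR) in 21 mo versus 18 mo.

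All 7 listed genes of the Epo receptor and its regulators were tested, and 0 had an adjusted or an unadjusted p under 0.05 in any comparison (edgeR), with 0 called by DESeq2. The unadjusted shares over all genes were 26.1% in 21 mo versus 18 mo, 20.7% in O304 versus 21 mo and 9.66% in O304 versus 18 mo. Epor was between 0.655 and 3.46 CPM. Hnf4a, a proximal tubule transcription factor that also acts on the Epo enhancer, was at 1044, 653 and 277 CPM in 21 mo replicates 1 to 3 against 850 to 1067 CPM in 18 mo kidneys, different by −0.52 in log2 (SE 0.40, adjusted p = 0.424, edgeR). Jak2, the kinase gene of the receptor, was at 0.24 (SE 0.12, adjusted p = 0.233, edgeR).

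The carbonic anhydrase family showed both directions. Of 15 other family members, 12 were tested, and in 21 mo versus 18 mo 1 was higher and 3 lower with an unadjusted p under 0.05, while 0 passed an adjusted p of 0.05 (edgeR). The unadjusted shares over all genes were 14% higher and 12% lower. DESeq2 called 3, of which 1 was higher, and 2023 over all genes, of which 1137 were higher and 886 lower. Car4, the membrane-bound enzyme of the proximal tubule, was at 189, 285 and 205 CPM in 18 mo kidneys, 135, 67.0 and 15.9 CPM in 21 mo kidneys and 196, 215 and 272 CPM under O304. All 21 mo libraries were below all others, at −1.64 (SE 0.59, adjusted p = 0.131) and 1.65 (SE 0.59, adjusted p = 0.194, edgeR) in the comparisons with 18 mo and O304. Car13, a cytosolic enzyme, was at 4.95, 14.5 and 15.2 CPM in 21 mo kidneys, above 1.86 to 3.50 CPM in all 6 others, with log2 fold changes of 2.03 (SE 0.43, adjusted p = 0.0626) and −2.13 (SE 0.43, adjusted p = 0.175, edgeR). Car3, an enzyme abundant in adipocytes and muscle, was at 3.48, 8.68 and 2.06 CPM in 21 mo kidneys, at 13.5 to 38.2 CPM in 18 mo kidneys and at 110, 31.0 and 76.5 CPM under O304. Under O304 it was 3.94 higher in log2 than in saline kidneys (SE 0.68, adjusted p = 0.175, edgeR). The adipocyte markers summed to 129, 55.2 and 36.2 CPM in saline kidneys and to 296, 111 and 252 CPM under O304, with overlap. The part of adipocytes in the Car3 values was not tested.

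The other Ndrg genes did not share the order of Ndrg1. All 3 were tested, and 0 passed an adjusted p of 0.05 in any comparison by edgeR or DESeq2. Ndrg2 alone had an unadjusted edgeR p under 0.05, lower in 21 mo versus 18 mo, beside 12% of all genes. Ndrg2 was at 162, 167 and 117 CPM in 18 mo kidneys, 134, 75.8 and 63.7 CPM in 21 mo kidneys and 141, 112 and 113 CPM under O304, at −0.70 in 21 mo versus 18 mo (SE 0.28, adjusted p = 0.153, edgeR). Ndrg3 was at 84.8, 58.7 and 49.3 CPM in 21 mo kidneys and between 78.8 and 91.0 CPM in the other libraries. Ndrg4 was at most 3.06 CPM.

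Likeness of pattern was measured, for members with an SD of log2 CPM of at least 0.5 over the 9 libraries, as the mean absolute difference between 2 genes' log2 CPM after each was centered on its mean. The 13908 other protein-coding genes tested were compared with Hif3a, Car9 and Ndrg1. Car9 was most like Acy1, Bdh1 and Upb1, at 0.23, 0.25 and 0.28, which encode enzymes of amino acid, ketone body and pyrimidine metabolism. Acy1 was at 103, 42.1 and 16.1 CPM in 21 mo replicates 1 to 3 and between 70.5 and 126 CPM in the other libraries. Ndrg1 was most like Adal, mt-Nd3 and mt-Nd6, at 0.15, 0.17 and 0.17. The last 2 encode subunits of respiratory complex I in the mitochondrial genome, where mt-Nd6 overlaps other transcripts of the opposite strand. It was at 2908, 1963 and 1379 CPM in 21 mo kidneys and between 3061 and 3402 CPM under O304. Hif3a was most like Map7d3, Mbnl3 and F830016B08Rik, at 0.24, 0.29 and 0.31, in libraries where the counts of Hif3a were 28 or fewer.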

How the data were processed

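Kidney RNA of 9 mice was measured, 1 library per mouse. The authors aligned filtered read pairs with HISAT2 2.0.5, and featureCounts 1.5.0-p3 gave the deposited count of each gene, which is raw. The submitters' processing notes name GRCm38. FPKM, also made by the authors, scales that count by depth and gene length. Strand and multi-mapping settings are not given in the sources used here. The authors' fold changes and p-values, from DESeq2 1.20.0, were not used.

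Of 54532 genes, 15902 passed edgeR's filterByExpr (minimum count 10, minimum total 15). Counts were normalized by TMM and tested with edgeR 4.0.16 (R 4.3.3), quasi-likelihood, in a model of 3 group means over 9 libraries with 6 residual degrees of freedom, two-sided, with Benjamini-Hochberg adjustment over all genes tested. The SE is the log2 fold change divided by the root of the F statistic. Depths of 15636378 to 18396725 counts limit genes such as Epo and Hif3a. Single values were compared by the exact permutation test. Aldoa stands on 2 identifiers, of which the one with more counts was used.

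The members and lists were chosen with earlier results of these data known. Genes named besides the members are, per list and comparison, those with an adjusted p under 0.05 and up to 4 with the smallest p, and the 3 genes most like each variable member. Alternatives were DESeq2 1.42.0, upper-quartile factors, other filters, only the 6 libraries compared, a replicate block, limma 3.58.1 (voom with quality weights, and trend on log2(FPKM + 1) for genes of mean FPKM 0.5 or more), and leaving out each library. Leaving out 21 mo replicates 2 and 3 together was added after the data were seen. The scripts were tested on simulated data. Sequences of the members were not used here.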

Additional observations from a re-analysis of the deposited data

How the results depend on the processing

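Counts of called genes depended on the tool and on 21 mo replicate 1. In 21 mo versus 18 mo edgeR called 3 genes, DESeq2 2023, voom with library weights 8409, edgeR on every gene with at least 1 count 576, and edgeR on only the 6 libraries compared 0. Members called were 3 by DESeq2, 5 by voom and 1, Hif1a, with every gene tested. In O304 versus 21 mo these tools called 896, 6528 and 17 genes, with 1 member by DESeq2 and 6 by voom. In O304 versus 18 mo DESeq2 called 118 genes, voom 415 and edgeR on the 6 libraries 22, and 0 members. Voom gave 21 mo replicate 2 a weight of 9.11 and replicate 3 a weight of 0.132, so its values lean on 1 library. The cause of these differences was not tested. Leaving out 1 library at a time gave 0 to 4186, 0 to 3808 and 0 to 12 called genes in the 3 comparisons, and 0 to 5 members in each comparison with 21 mo. The highest counts of the first 2 came without 21 mo replicate 1, while 130 genes were called in 21 mo versus 18 mo without its replicate 3.

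With the replicate number as a block, edgeR called 0 genes and 0 members in each comparison. The labels do not say that the numbers pair mice, so they were not taken as a pairing. Same-numbered libraries of different groups had correlations of −0.13 to 0.175, and differently numbered ones of −0.26 to 0.20.

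Some directions turned, among values near 0 and larger ones. With all libraries Car9 was at 1.04 and Egln1 at 0.42 in O304 versus 21 mo, and Angpt2 at −1.64 and Ndrg4 at −0.52 in O304 versus 18 mo, and 0 of the values that turned had passed the threshold. By voom the turned values were Egln3 at −0.0099 in 21 mo versus 18 mo and 0.31 in O304 versus 21 mo, and Hif3a at −0.14 and Ndrg4 at 0.39 in O304 versus 18 mo. With 21 mo replicate 1 alone, Egln1 was at −0.0041 and Car9 at −0.012 in O304 versus 21 mo. Leaving out 1 library gave −0.16 to 0.39 for Ndrg1 in 21 mo versus 18 mo. In O304 versus 21 mo it gave −0.30 to 0.25 for Egln3, −0.28 to 0.029 for Vhl and −0.66 to 0.012 for Gata3. In O304 versus 18 mo it gave −0.16 to 0.10 for Epas1, −0.42 to 0.95 for Hif3a, −0.52 to 0.17 for Car9, −2.17 to 0.10 for Angpt2, −0.53 to 0.0069 for Stat5a, −0.67 to 0.56 for Epor and −1.01 to 1.11 for Ndrg4. Hif1a, Epas1 and Vegfa kept their direction in both comparisons with 21 mo under every alternative run. Epo and Hif3a are limited by depth.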
